A study of Mus musculus with 9 samples.

Results

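T-box transcription factors share a DNA-binding domain, the T-box, and set regional identity in the embryo. The 8 genes described here, Tbx20, Tbx2, Tbx3, Tbx4, Tbx5, Tbx15, Tbx18 and Tbx1, were taken by symbol from a table of 22013 mouse genes, in which 17 genes are annotated to the T-box family. They were compared across segments L, T and C of the spinal meninges, with 3 RNA-seq libraries of primary fibroblasts from each. The letters are not spelled out in the labels, all cells were freshly collected without special treatment, and the labels give no strain, age or genotype. Nothing in the labels ties a replicate to its own animal, so SEs and p-values reflect the spread between these 9 libraries alone, which may be technical. The series title concerns scarring after spinal cord injury, and injured tissue was not analysed here.

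In embryos, T-box genes are switched on by signals such as bone morphogenetic proteins, retinoic acid and Sonic hedgehog, and some activate while others repress their targets. Tbx4 and Tbx5 are known from hindlimb and forelimb, Tbx20 and Tbx5 from the heart, and Tbx18 from somites, epicardium and the mural cells of small vessels. The meninges of the trunk come from mesoderm, in which several of these genes are active during development. The 8 genes were picked with the segment differences already known. Their own differences are therefore given as a description. Where the text says how many lie past the threshold of the fit over all genes, that count is no independent test of them.

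Total estimated counts ranged from 15652558 to 25204310 per library. In all 9 pairs of libraries within a segment the counts differed beyond sampling noise (chi-square over degrees of freedom, 3.66 to 19.6). All 8 fibroblast markers on the list, among them Col1a1, Col1a2, Dcn and Pdgfra, were detected in every segment. Their summed level was 12131 to 12625 TPM (a level per transcript length, scaled to the library's total) in L, 10287 to 10945 TPM in T and 7885 to 8290.2 TPM in C. Of 12553 genes with at least 1 TPM in at least 3 libraries, 51.1% passed an adjusted p of 0.05 for T against C, 49.6% for L against C and 16.1% for L against T (edgeR quasi-likelihood test). Since all libraries are bulk RNA, fewer cells of a type and less RNA per cell cannot be told apart.

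Of the 8 genes, 5 passed that filter on low values, namely Tbx20, Tbx2, Tbx3, Tbx15 and Tbx18. Tbx20 and Tbx2 passed through their C libraries alone and so had to differ. For T against C, 4 of the 8 genes were lower past the threshold and none higher, where 25.2% of all tested genes were lower. For L against C, 5 were lower and none higher, where 25.2% of all tested genes were lower. For L against T, 1 was higher and 1 lower, where 7.88% and 8.21% of all tested genes were. In TPM, the libraries of T and C did not overlap for any of the 5 tested members, beside 58.1% of all tested genes. Those of L and C did not overlap for 5 (58.6%) and those of L and T for 2 (28.2%). Below the filter, Tbx1 also did not overlap between L and C. Nothing is read from these counts, since the genes were chosen on the same contrasts.

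**Figure D1:**
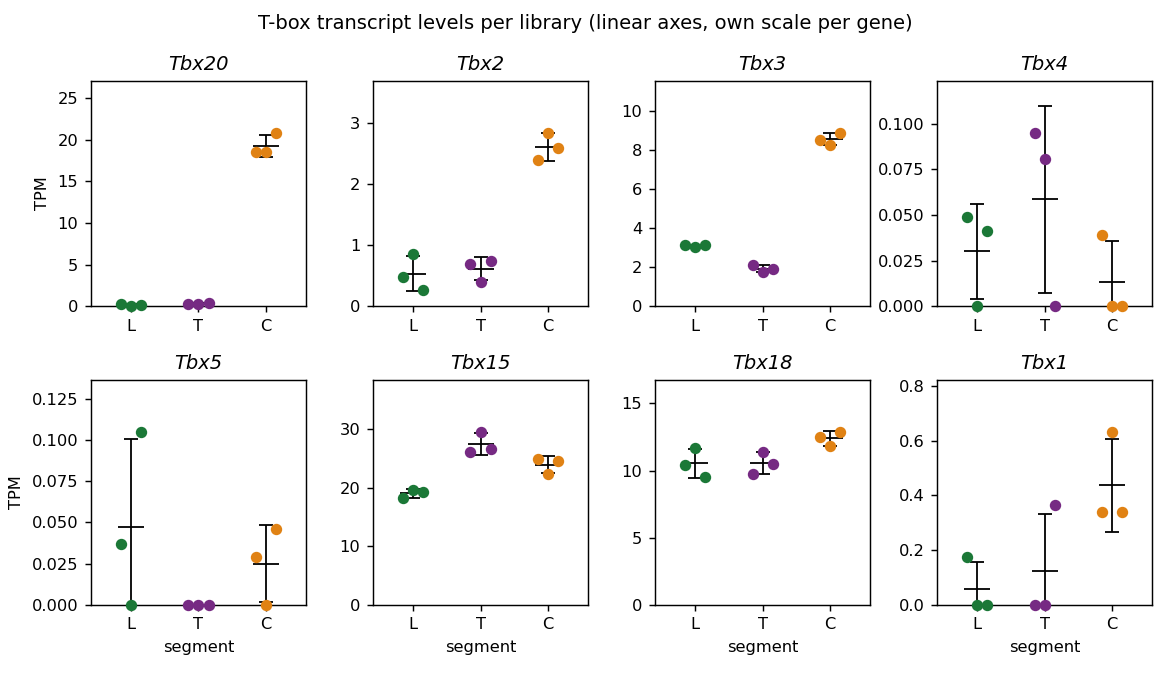
Level of each T-box gene in every library, in TPM on linear axes with a separate scale per gene. Points are libraries of segments L, T and C, and black bars are the mean ± SD of 3 libraries. Tbx20, Tbx2 and Tbx3 stand high in C, while Tbx15 and Tbx18 are well expressed in all 3 segments and Tbx4 and Tbx5 lie near 0.

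Promoter sequences from RefSeq (GRCm38.p6) are shown for Tbx20, the gene with the widest difference between segments, and Tbx18, the one with the smallest among those expressed. Each runs from 250 bases before to 50 bases after the gene's start, 5′ to 3′ on the gene's strand, with CpG dinucleotides in capitals. The Tbx20 window is chr9:24774254-24774553 and the Tbx18 window chr9:87731211-87731510, both on the minus strand.
Tbx20: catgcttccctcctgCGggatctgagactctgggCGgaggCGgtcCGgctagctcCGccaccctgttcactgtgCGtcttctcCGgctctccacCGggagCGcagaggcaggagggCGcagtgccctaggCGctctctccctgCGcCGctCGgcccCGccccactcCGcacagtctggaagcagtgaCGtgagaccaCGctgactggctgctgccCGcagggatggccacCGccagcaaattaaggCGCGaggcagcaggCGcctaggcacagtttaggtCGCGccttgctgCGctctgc
Tbx18: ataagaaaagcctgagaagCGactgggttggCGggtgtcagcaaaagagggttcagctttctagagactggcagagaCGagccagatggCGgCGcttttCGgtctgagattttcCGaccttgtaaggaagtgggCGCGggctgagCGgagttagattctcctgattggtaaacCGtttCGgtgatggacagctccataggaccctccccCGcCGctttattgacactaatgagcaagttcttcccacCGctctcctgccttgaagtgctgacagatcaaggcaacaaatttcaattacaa

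The Tbx20 window held 26 CpG dinucleotides at a GC content of 68.3%, and the Tbx18 window 15 at 51.7%. The median over 32851 promoter windows of the same length was 7 CpG dinucleotides at 52.7% GC. RefSeq windows were also matched for Tbx4, with 8 CpG dinucleotides, and for 2 starts of Tbx1, with 26 and 16. None was matched for Tbx2, Tbx3, Tbx5 and Tbx15. A T-box binding motif, spelled AGGTGTGA or TCACACCT on the other strand, was in none of the matched windows and is in 1.28% of all windows. A TATA box, spelled TATAAA or TTTATA on the other strand, was in the Tbx4 window alone and is in 13.6% of all windows. No match says only that these letters are not in these windows.

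Tbx20, a transcription factor best known for heart development, was a gene of the C libraries. It was listed at 0.289, 0.051 and 0.094 TPM in L, at 0.262, 0.306 and 0.435 TPM in T, and at 18.5, 18.5 and 20.8 TPM in C. Every C library lay far above every T and L library, and the T and L libraries overlapped. Behind these levels stood estimated counts of 27 over the 3 L libraries, 33 over the 3 T libraries and 4267 over the 3 C libraries. On counts, Tbx20 was 116-fold lower in T than in C (log2 difference -6.86, SE 0.22) and 127-fold lower in L than in C (-6.98, SE 0.22). Only 8 of the 12553 tested genes had a more negative log2 difference for T against C, and 1 did for L against C. Leaving out each library in turn moved the log2 difference between -7.17 and -6.71 for T and between -7.85 and -6.62 for L, the lowest without L replicate 1, which held 17 of the 27 counts.

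The TPM means of Tbx20 gave a smaller ratio for T, 57.7-fold lower than C, and 133-fold lower for L. For Tbx20, 1 CPM (a count scaled to library size) corresponded to 0.254 to 0.279 TPM in L, to 0.394 to 0.954 TPM in T, and to 0.268 to 0.296 TPM in C. In T these ratios rest on estimated counts of 8 to 16 per library, and the table is not split by transcript. On log2(TPM + 0.1) the difference was -5.50 for T against C and -6.43 for L against C (limma). Between L and T the log2 difference was -0.12 with a 95% interval from -1.02 to 0.77.

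Tbx2 and Tbx3 are closely related genes whose products mainly repress transcription. Tbx3 stood at 3.12, 3.04 and 3.12 TPM in L, at 2.11, 1.73 and 1.91 TPM in T, and at 8.53, 8.28 and 8.88 TPM in C. The 3 segments did not overlap, with C highest, L between and T lowest. Tbx3 was 4.88-fold lower in T than in C (log2 difference -2.29, SE 0.11) and 2.99-fold lower in L than in C (-1.58, SE 0.11). Set against T, L was 1.64-fold higher (0.71, SE 0.13). Its SD was 0.0463 TPM in L, 0.19 TPM in T and 0.3 TPM in C (n = 3 each). In the GENCODE M21 annotation the opposite-strand genes Tbx3os1, Gm43120 and D030062O11Rik overlap Tbx3, Tbx15 and Tbx18. No source used here says whether counting used strand, so those 3 levels are uncertain to that extent.

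Tbx2 was less abundant, at 0.483, 0.852 and 0.27 TPM in L, at 0.694, 0.395 and 0.746 TPM in T, and at 2.39, 2.84 and 2.59 TPM in C. All C libraries exceeded all others, while L and T overlapped. Tbx2 was 4.65-fold lower in T than in C (log2 difference -2.22, SE 0.29) and 5.37-fold lower in L than in C (-2.43, SE 0.31). Between L and T the log2 difference was -0.21, with a 95% interval from -0.97 to 0.55. The interval rests on small estimated counts, 40 over the L libraries and 52 over the T libraries against 267 over the C libraries. For L against C, the log2 difference ran from -2.9 to -2.07 when each library was left out in turn.

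Tbx15, a factor of skeletal and skin development, was the most abundant T-box gene in each segment. It stood at 18.2, 19.7 and 19.3 TPM in L, at 26.1, 29.6 and 26.6 TPM in T, and at 25, 22.3 and 24.6 TPM in C. L was lowest, with no overlap with either of the other segments. Tbx15 was 1.41-fold lower in L than in T (log2 difference -0.49, SE 0.08) and 1.35-fold lower in L than in C (-0.44, SE 0.08). T and C did not overlap in TPM, with T higher, but on counts the log2 difference was 0.06 with a 95% interval from -0.09 to 0.21. The TPM and count scales differed at the median as well: the median tested gene moved by 0.128 for T against C on log2(TPM + 1) and by 0.0158 in edgeR.

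Tbx18 varied least. It stood at 10.4, 11.7 and 9.53 TPM in L, at 9.77, 11.4 and 10.5 TPM in T, and at 12.5, 11.8 and 12.9 TPM in C. C lay narrowly above the others, and L and T overlapped. Tbx18 was 1.28-fold lower in T than in C (log2 difference -0.36, SE 0.09) and 1.27-fold lower in L than in C (-0.34, SE 0.09). On log2(TPM + 1) both differences were -0.22 (limma). Between L and T the log2 difference was 0.02, with a 95% interval from -0.15 to 0.19.

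**Figure D2:**
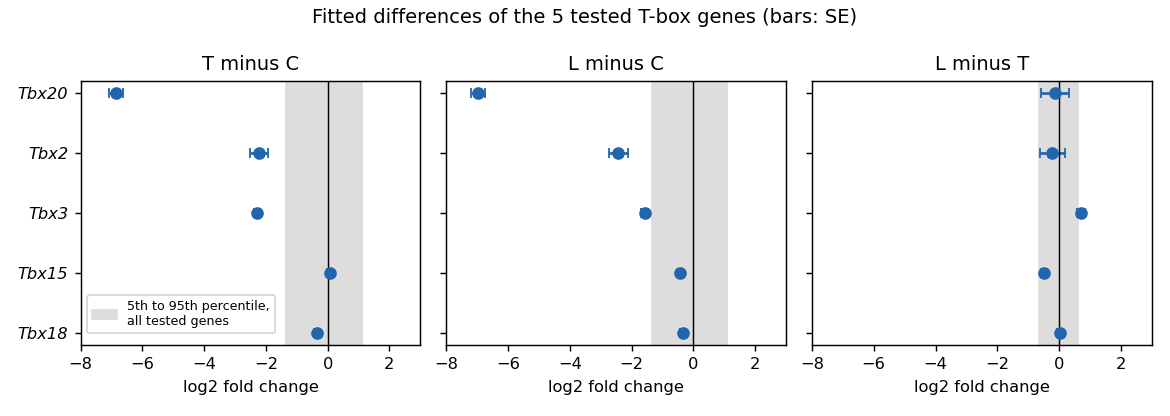
Fitted log2 fold changes of the 5 tested T-box genes in the 3 contrasts between segments, with bars of 1 SE. Grey bands span the 5th to the 95th percentile of all 12553 tested genes, -1.36 to 1.11 for T minus C, -1.33 to 1.09 for L minus C and -0.653 to 0.606 for L minus T. Tbx20, Tbx2 and Tbx3 lie left of the band in both contrasts with C, and Tbx15 and Tbx18 lie inside it.

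Of the 3 genes below the filter, Tbx1 had the highest estimated counts. Tbx1, known for its part in forming the pharyngeal arches, had estimated counts of 2, 0 and 0 in L, 0, 0 and 5 in T, and 5, 9 and 7 in C. C libraries lay above all L libraries, and 1 T library reached the C range. Scaled to library size, its summed counts were lower in L than in C by a ratio of 8.55 (95% counting interval 2.09 to 75.3), and in T than in C by a ratio of 3.83 (1.41 to 13). These intervals cover counting error only, not the spread between libraries, and all 5 of its counts in T came from 1 library.

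The limb factors Tbx4 and Tbx5 were close to absent. Tbx4 had 2 counts over the L libraries, 4 over the T libraries and 1 over the C libraries, at no more than 0.095 TPM in any library. Tbx5 had 2 counts over the L libraries, 0 over the T libraries and 3 over the C libraries, at no more than 0.105 TPM. The 0 in T allows up to 3 counts over the segment, or 0.0525 CPM. No difference between segments was detectable for either gene at this depth.

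By level per transcript length, the order in L was Tbx15, Tbx18, Tbx3, Tbx2 and Tbx20, from 19.1 ± 0.809 to 0.145 ± 0.127 TPM (SD, n = 3), and the last pair overlapped. In T the order was the same, from 27.4 ± 1.91 to 0.334 ± 0.0899 TPM, and Tbx2 and Tbx20 overlapped there as well. In C it was Tbx15, Tbx20, Tbx18, Tbx3 and Tbx2, from 24 ± 1.48 to 2.6 ± 0.224 TPM, with no overlap between neighbours. Tbx20 thus stood lowest of the 5 in L and T and next to the top in C.

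All 17 annotated T-box genes together reached 47.7 ± 3.09 TPM in L, 52.5 ± 5.77 TPM in T and 76.8 ± 4.23 TPM in C (SD, n = 3). Tbx20 made up 0.308% of that sum in L, 0.635% in T and 25.1% in C. Tbx15 made up 40.1% in L, 52.4% in T and 31.3% in C, and Tbx18 22.1%, 20.1% and 16.1% in that order of segments. Tbx3 held 6.51% in L, 3.7% in T and 11.2% in C. Shares of a sum move against each other, so the lower shares of Tbx15 and Tbx18 in C stand beside the added Tbx20.

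**Figure D3:**
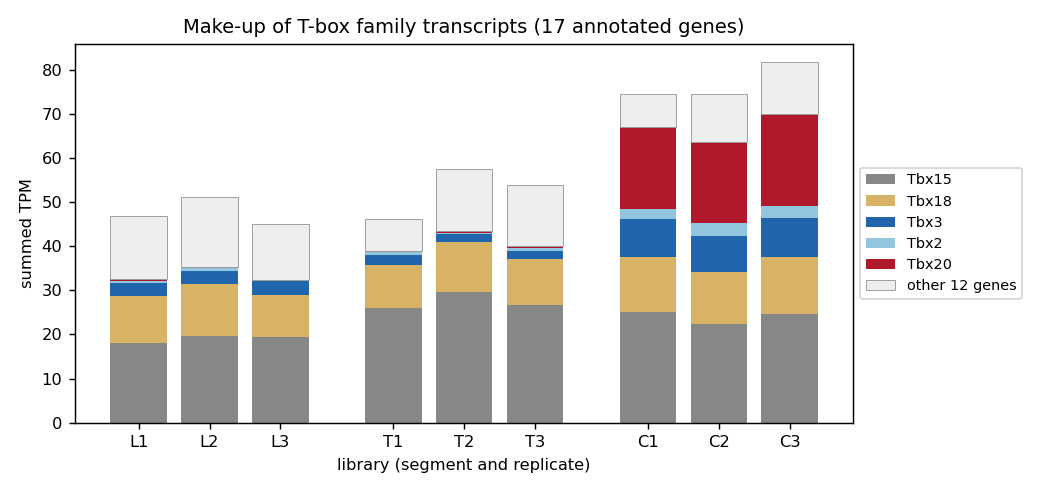
Summed TPM of the 17 annotated T-box genes in each library, split by gene, with libraries grouped as L, T and C. Tbx20 adds 24.9% to 25.5% of the sum in the C libraries and at most 0.807% elsewhere, while Tbx15 is a large share in all 9.

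Among the 9 T-box genes outside the 8, Mga alone passed the filter. Mga, a large protein that pairs a T-box with a domain for binding Max, stood at 13.9 ± 1.5 TPM in L, 11.3 ± 3.68 TPM in T and 8.77 ± 2.29 TPM in C (SD, n = 3). It rose in L against C by 1.52-fold (log2 0.61, SE 0.21, edgeR adjusted p = 0.0291). That call ended in DESeq2 (adjusted p = 0.0775) and without C replicate 1 or 2 or L replicate 1 or 2 (edgeR adjusted p = 0.128, 0.0762, 0.0699 and 0.0816). Mga did not pass for T against C (log2 0.29, edgeR adjusted p = 0.272), but did without T replicate 1 (0.52, edgeR adjusted p = 0.00671), which stood at 7.05 TPM beside 13.7 and 13.2 TPM in the other T libraries. It did not pass for L against T (0.32, adjusted p = 0.377). The founder of the family, brachyury, had 0 counts in all 9 libraries.

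Across the 9 libraries, levels on log2(TPM + 1) of Tbx20, Tbx2 and Tbx3 ran together, with Pearson's r of 0.96 for Tbx20 and Tbx2, 0.94 for Tbx20 and Tbx3, and 0.91 for Tbx2 and Tbx3. Tbx15 stood apart, with r of 0.18 to Tbx20, 0.16 to Tbx2 and -0.13 to Tbx3. These values describe 9 libraries in 3 segments and largely restate the segment means.

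Among 12152 other genes, those most like Tbx20 were Adamts8, a matrix protease, Megf10, an engulfment receptor, and Gdf6, a bone morphogenetic protein, with r of 0.9980, 0.9976 and 0.9976. Gdf6 stood at 0.0687 TPM in L, 0.151 TPM in T and 4.52 TPM in C. With so plain a pattern, 60 genes had an r of at least 0.99 to Tbx20, and 59 did to Tbx3. Most like Tbx3 were Hmga1b, Rgs16, a regulator of G protein signalling, and Lmcd1, a LIM domain protein, with r of 0.9982, 0.9981 and 0.9980. Rgs16 stood at 21.8 TPM in L, 9.77 TPM in T and 116 TPM in C. Hmga1b has near-identical copies, so its counts are uncertain.

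Closest to Tbx2 were Entrep1, Kctd15 and Rhou, with r of 0.9899, 0.9844 and 0.9840. Tbx15 was most like Csmd1, Nlgn1, a synaptic adhesion molecule, and Csf1r, the colony-stimulating factor receptor of macrophages, with r of 0.9905, 0.9776 and 0.9594. Tbx18 was most like Lats2, a kinase of the Hippo pathway, Ndel1 and Ube2e1, with r of 0.9840, 0.9751 and 0.9740. Csf1r stood at 1.66 TPM in L, 8.58 TPM in T and 5.71 TPM in C, the same order of segments as Tbx15 but over a wider range.

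Markers of other cell types differed between segments beside these genes. Of all tested genes, 25.8% passed higher and 25.2% lower for T against C, and 24.4% and 25.2% for L against C. For L against T these shares were 7.88% and 8.21%. The counts per marker list stand beside them. Mural cell markers summed to 129.9 to 132 TPM in L, 69.9 to 73.3 TPM in T and 305 to 318 TPM in C. That is the order of Tbx3, and of the endothelial, Schwann and neuronal sums below. Of the 10 mural markers, 7 were tested: 6 fell in T and 5 in L against C, and none rose. Mcam made up most of the mural sum in C (211 TPM), and Notch3 averaged lowest there (7.53 TPM). Vtn reached 1 TPM in C libraries alone and so had to differ. Higd1b was at 0 in all segments, and the pericyte markers Kcnj8 and Abcc9 stayed under 0.08 TPM on average. Endothelial markers summed to 59.2 to 63.4 TPM in L, 48.7 to 49.5 TPM in T and 105 to 117 TPM in C, with 4 of 5 tested lower and 1 higher in T and in L. Cdh5 made up most of the endothelial sum in each segment (54.1 TPM in L, 43.1 TPM in T and 83.6 TPM in C). Pecam1 averaged no more than 0.319 TPM, and Kdr and Emcn reached 1 TPM in C libraries alone and so had to differ. Cldn5 had 0 counts in every segment and Erg in T.

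Schwann cell markers summed to 48.4 to 49.4 TPM in L, 27.8 to 33.4 TPM in T and 77.4 to 86.7 TPM in C, with 6 of 7 tested lower and 1 higher against C in each. Neuronal markers summed to 38.8 to 42.1 TPM in L, 21.6 to 22.8 TPM in T and 231 to 235 TPM in C. Both tested markers, Stmn2 and Tubb3, fell, and they made up nearly all of the sum in C (162 and 70.1 TPM). Snap25, Nefl, Rbfox3 and Elavl3 also averaged highest in C, at no more than 0.303 TPM, and Syt1 averaged lowest there (0.115 TPM). Snap25, Rbfox3 and Elavl3 had 0 counts in L and T. Cardiac muscle markers summed to 2.88 to 4.03 TPM in L, 2.96 to 4.55 TPM in T and 11 to 11.8 TPM in C. Myh6 was at 0 throughout, and 1 of 7 was tested, Tnnt2, which fell and made up most of the sum in C (10.3 TPM). Below the filter, Tnni3 and Actn2 averaged lowest in C (0.141 and 0.104 TPM), against 0.538 and 0.467 TPM in L and 0.736 and 0.438 TPM in T. Nppa and Ryr2 averaged highest in C (0.168 and 0.144 TPM), and Myl7 was at 0.491 TPM in both L and C. The part of these cell types in the levels of Tbx20, Tbx2 and Tbx3 was not tested.

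Other lists followed other orders. Macrophage markers summed to 18.5 to 21.6 TPM in L, 45.5 to 48 TPM in T and 40.2 to 43.8 TPM in C, with all 6 tested lower in L against C and against T, and 1 higher and 1 lower in T against C. This is the order of Tbx15 in TPM, and the astrocyte markers share it. On counts the log2 difference of Tbx15 between T and C was only 0.06. The part of either cell type in the level of Tbx15 was not tested. Astrocyte markers summed to 35.1 to 37.3 TPM in L, 150.4 to 155 TPM in T and 98.8 to 109 TPM in C, with 4 of 6 higher and 2 lower in T against C, and 1 higher and 4 lower in L. Arachnoid barrier markers summed to 297 to 310.4 TPM in L, 418 to 434 TPM in T and 149 to 156 TPM in C, with 7 of 8 tested higher in T and all 8 in L against C. That is the reverse of the order of Tbx3.

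**Figure D4:**
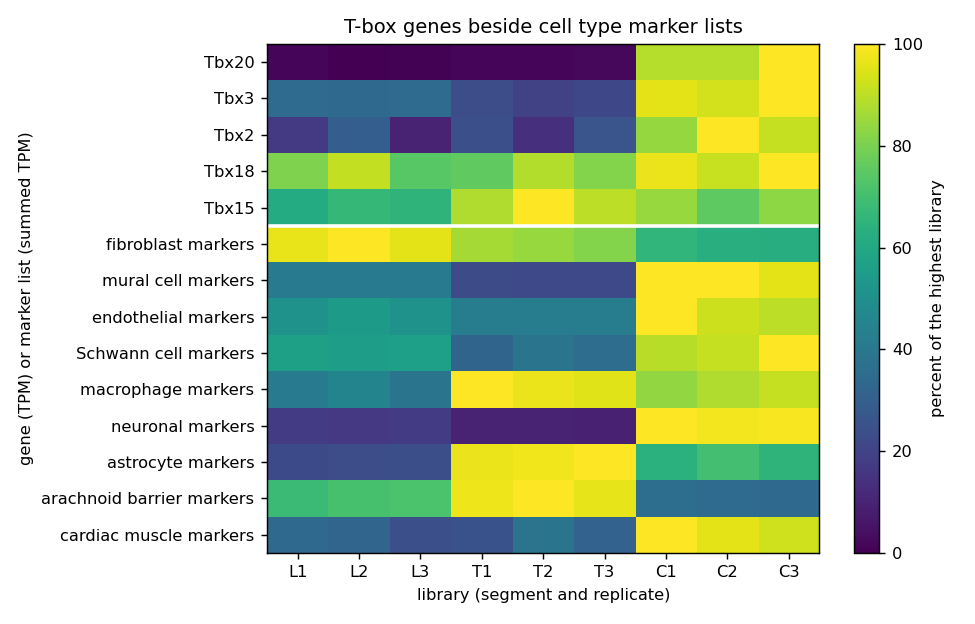
Levels of the 5 tested T-box genes (TPM) and of 9 cell type marker lists (summed TPM) in each library, as a percentage of the highest library in the row. Mural, endothelial, Schwann, neuronal and cardiac muscle lists are highest in C with Tbx20, Tbx3 and Tbx2, and macrophage, astrocyte and arachnoid barrier markers are highest in T. The cardiac muscle sum in C is mostly Tnnt2, and the neuronal sum in C mostly Stmn2 and Tubb3. The mural sum in C is mostly Mcam, and the endothelial sum mostly Cdh5.

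Genes of the T-box pathway were then read from 7 lists covering partners, upstream signals, targets, and corepressors with other chromatin factors. Of 99 genes on them, 64 were tested. For T against C, 25 rose and 23 fell, 75% of those tested beside 51.1% of all genes, with a median log2 change of -0.0322 beside 0.0158. For L against C, 22 rose and 27 fell (76.6% beside 49.6%), with a median of -0.0454 beside 0.00715. For L against T, 8 rose and 15 fell (35.9% beside 16.1%), with a median of -0.107 beside -0.00255. The lists were drawn up with earlier results of these data known, so nothing particular to them is read from these shares. Counts per list below stand beside the shares of higher and lower genes given with the marker lists.

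Upstream signals moved both ways. For T against C, 4 of 12 tested rose and 6 fell, and for L against C 5 rose and 6 fell. Shh (Sonic hedgehog) fell 56.7-fold in T and 51-fold in L, to means of 0.0587 ± 0.0221 TPM in T and 0.0657 ± 0.0795 TPM in L, against 3.35 ± 0.338 TPM in C (edgeR adjusted p = 4.94e-08 and 9.47e-08). Shh reached 1 TPM in its C libraries alone, so it passed the filter through C and had to differ, and the same holds for Bmp2. The L libraries held 3, 0 and 1 counts of Shh, and without L replicate 1 the log2 change was -6.94, beside -5.67 with it. Bmp2, a bone morphogenetic protein known to induce Tbx2 and Tbx3 in the embryo, stood at 0.349 ± 0.12 TPM in L and 0.395 ± 0.104 TPM in T against 3.76 ± 0.159 TPM in C, a fall of 11.7-fold and 10.3-fold. Bmp4, a related ligand, moved the other way and reached 214 ± 4.31 TPM in L and 358 ± 7.28 TPM in T against 43.3 ± 3.44 TPM in C, a rise of 4.57-fold and 7.64-fold.

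Aldh1a2, which makes retinoic acid, stood at 32.2 ± 1.26 TPM in L and 27 ± 1.85 TPM in T against 217 ± 8.51 TPM in C, 7.26-fold and 8.75-fold lower. Between L and T it was 1.21-fold higher in L (edgeR adjusted p = 0.0165), a call that ended without T replicate 3 (adjusted p = 0.0805) or L replicate 2 (0.0503), and with L and T fitted alone (0.0549). For L against T, 1 of the 12 rose and 2 fell on this list.

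Limb and flank field genes were mostly expressed, with 13 of 16 tested. For T against C 5 rose and 8 fell, for L against C 3 rose and 8 fell, and for L against T 3 rose and 4 fell. Fgf10, a growth factor of limb buds that Tbx4 and Tbx5 activate, stood at 3.06 ± 0.714 TPM in L and 5.72 ± 0.712 TPM in T against 17.8 ± 1.15 TPM in C. It fell 6.32-fold in L and 3.39-fold in T against C, and 1.86-fold in L against T (edgeR adjusted p = 5.62e-04). Grem1, a secreted antagonist of bone morphogenetic proteins, fell 6.76-fold in L and 8.13-fold in T, to 12.1 ± 0.595 and 10.2 ± 1.69 TPM, against 76 ± 10.3 TPM in C.

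Msx2, a homeobox target of bone morphogenetic protein signalling, followed the order of Tbx3, at 54.1 ± 0.489 TPM in L, 22.2 ± 1.14 TPM in T and 78 ± 2.39 TPM in C. It rose 2.48-fold in L against T (edgeR adjusted p = 3.83e-08). Sall1, a zinc finger factor, fell 5.53-fold in L and 2.76-fold in T against C. Pitx1, the hindlimb factor upstream of Tbx4, was below the filter at a mean of 0.0643 TPM in C and 0 in L and T.

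Reported targets of T-box factors had 4 rises and 5 falls among 11 tested for T against C, 3 rises and 7 falls for L against C, and 1 rise and 3 falls for L against T. Cdh1 (E-cadherin), which TBX2 and TBX3 repress in human cells, rose 39.8-fold in T and 9.84-fold in L, to 6.04 ± 0.381 and 1.46 ± 0.386 TPM, against 0.14 ± 0.0644 TPM in C (edgeR adjusted p = 1.49e-09 and 1.72e-06). Cdh1 reached 1 TPM in L and T libraries alone and so had to differ from C. It is also an arachnoid barrier marker, and that list rose beside it. Gja5 (connexin of the heart and vessels) fell 11.6-fold in L and 13.1-fold in T on counts, with 5 to 7 counts per L library and 2 to 10 per T library against 70 to 128 per C library. By TPM means the falls were 4.17-fold and 8.36-fold, at 0.824 ± 0.959 TPM in L and 0.411 ± 0.411 TPM in T against 3.43 ± 0.411 TPM in C. L replicate 1 was listed at 1.93 TPM and L replicate 2 at 0.348 TPM, both on 7 counts. Nppb, a natriuretic peptide, fell 6.62-fold in L and 5.97-fold in T, to 0.482 ± 0.396 and 0.53 ± 0.336 TPM, against 3 ± 0.774 TPM in C. It had 1 to 6 counts per library in L and T, and its log2 change was -3.54 without L replicate 1 and -3.22 without T replicate 2, beside -2.73 and -2.58 with all libraries. Lef1, a Wnt pathway factor, fell 8.18-fold in T and 8.87-fold in L. Nppb and Lef1 reached 1 TPM in C libraries alone, so they passed the filter through C and had to differ. Gja5 reached it in the C libraries and L replicate 1.

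Of 16 heart factors that work with T-box proteins, 8 were expressed past the filter. Smarcd3, a chromatin remodelling subunit, averaged 43.3 TPM in L, 41.8 TPM in T and 42.1 TPM in C, and Mef2c, a MADS-box factor, 16.9, 15 and 14.9 TPM in that order of segments. Nkx2-5, Isl1, Gata5 and Sall4 had a mean of 0 TPM in each segment, and Gata4 did not exceed a mean of 0.106 TPM. Of the 8 tested, none rose and 2 fell for T against C, 1 rose and 4 fell for L against C, and 1 rose and 2 fell for L against T. Irx3 and Irx5, Iroquois homeobox factors, fell 7.21-fold and 4.81-fold in L against C. Irx3 stood at 0.648 ± 0.273 TPM in L, 4.05 ± 0.698 TPM in T and 4.47 ± 0.27 TPM in C, and fell 5.97-fold in L against T (edgeR adjusted p = 1.11e-05). Irx3 reached 1 TPM in T and C libraries alone, so it passed the filter through them and had to be lower in L. Hey1 and Hey2, Notch targets, fell 2.79-fold and 2.42-fold in L against C.

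Epicardial and mesothelial genes split within the list. Wt1 and Tcf21, which with Tbx18 mark epicardium, were below the filter. Of 6 tested, 4 rose and 1 fell for T against C, 2 rose and 2 fell for L against C, and 3 fell for L against T. Upk1b, a uroplakin, fell 34.1-fold in L and 25.1-fold in T, to 0.568 ± 0.0491 and 0.787 ± 0.191 TPM, against 18.2 ± 1.06 TPM in C, while its relative by name Upk3b rose 6.75-fold and 4.82-fold. Upk1b reached 1 TPM in C libraries alone and Upk3b in L and T libraries alone, so both had to differ. Sema3d, a guidance molecule, rose 8.04-fold in L and 16-fold in T, to 44.9 ± 5.1 and 90.5 ± 21.4 TPM, against 5.15 ± 0.782 TPM in C. Msln (mesothelin) fell 3.6-fold in L against T, at 41.3 ± 1.8 TPM in L, 151 ± 6.86 TPM in T and 118 ± 5.15 TPM in C.

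Corepressors and other chromatin factors, listed together, were present in each segment, and no named one changed as much as 2-fold on counts. All 13 were tested: 8 rose and 1 fell for T against C, 7 rose for L against C, and 2 rose and 1 fell for L against T. The Groucho family members Tle2 and Tle1 rose 1.75-fold and 1.42-fold in T, and 1.83-fold and 1.25-fold in L. Kdm6a, a histone demethylase, rose 1.35-fold in T, a call that ended without C replicate 1 (edgeR adjusted p = 0.0512) or T replicate 2 (0.0518). Cbx3, a heterochromatin protein, rose 1.3-fold in T and 1.21-fold in L, and its call in L ended without any of the C libraries or L replicate 1 or 2 (edgeR adjusted p of 0.0711 to 0.118).

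**Figure D5:**
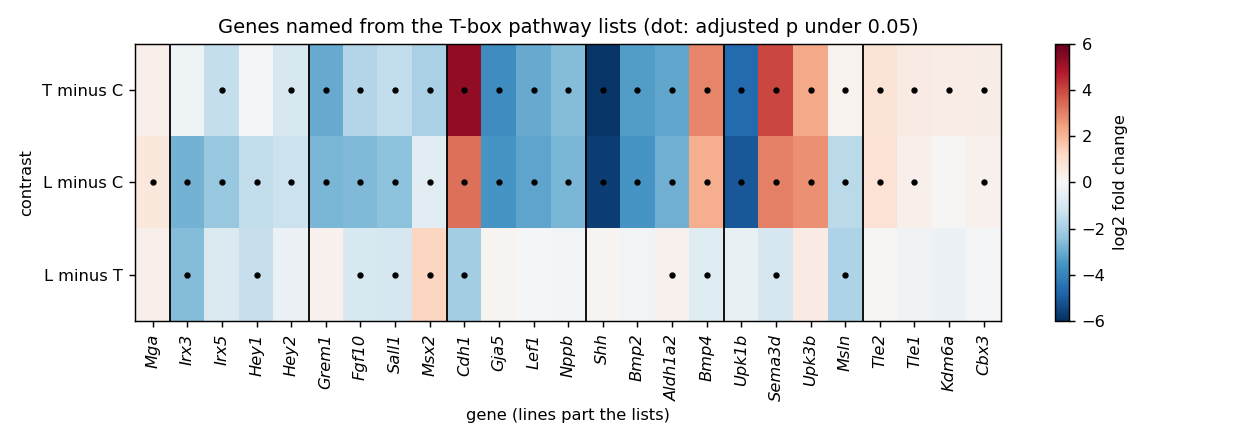
Fitted log2 fold changes of the 25 genes named from the pathway lists, with a row for each of the 3 contrasts, lines between lists and dots where the edgeR adjusted p is under 0.05. Upk1b and Shh carry the deepest blue in both contrasts with C, and Cdh1 and Sema3d the deepest red.

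Genes next to the T-box genes in the GENCODE M21 order were read to see whether a whole neighbourhood differed. Next in order is not always close: gaps ran from 1 kb for Wars2 to 905 kb for Med13l. Beside Tbx18 they were 595 kb for Nt5e and 447 kb for Cep162. Tbx2 and Tbx4 lie near each other on chromosome 11, and Tbx3 and Tbx5 on chromosome 5. Tbx2 and Tbx3 passed the filter on low values, and Tbx4 and Tbx5 did not. Bcas3, next to Tbx2, stood at 45.7 TPM in L, 46.2 TPM in T and 38.8 TPM in C. It rose by a log2 of 0.21 in T against C (edgeR adjusted p = 0.0294), a call that ended without C replicate 3 (0.0705) or T replicate 1 (0.0996), opposite to the direction of Tbx2. Brip1, a DNA repair helicase beyond Tbx4, rose by a log2 of 1.13 in T and 1.21 in L against C (edgeR adjusted p = 3.67e-04 and 2.45e-04). Med13l, the nearest coding gene on the other side of Tbx3, had log2 changes of 0.25 in T and 0.12 in L (edgeR adjusted p = 0.0322 and 0.299). The Med13l call ended without C replicate 2 or 3 or T replicate 2 or 3 (adjusted p of 0.0888 to 0.11). Rbm19, beyond Tbx5, did not pass in any contrast (adjusted p of 0.16 to 0.977).

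Beside Tbx18, Nt5e, the ecto-nucleotidase CD73, fell by a log2 of 1.52 in T and 1.89 in L against C (edgeR adjusted p = 8.36e-06 and 1.95e-06), at 1.49 TPM in L, 1.94 TPM in T and 5.07 TPM in C. Cep162, on its other side, rose by 0.84 in L (edgeR adjusted p = 0.0125), a call that ended without C replicate 1 (0.0564) or 2 (0.0511). Wars2, next to Tbx15, did not pass in any contrast (edgeR adjusted p of 0.277 to 0.803). Gnb1l, next to Tbx1, fell by 0.41 in T (edgeR adjusted p = 0.0149), which ended without C replicate 2 (0.0584) or T replicate 2 (0.0546). Gp1bb, on the other side of Tbx1, fell by 0.79 in T and in L (edgeR adjusted p = 0.0342 and 0.0377). Its calls ended on log2(TPM + 1) in limma (adjusted p = 0.0861 and 0.104) and without several single libraries (edgeR adjusted p up to 0.147 and 0.149), and in L with the replicate block (0.0503). Of the genes beside Tbx20, Dpy19l2 was listed at 0 in every library.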

How the data were processed

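RNA-seq libraries of mouse spinal meningeal fibroblasts, 3 per segment, were grouped by sample title. For L replicate 3 the description and the title disagree, since the description points to the L replicate 2 column. The title was followed. Per the labels' protocols, total RNA was isolated with TRIzol and a stranded library kit was used. Tools named in the submitters' processing notes, with no role or order, are DESeq2 1.32.0, StringTie 2.1.4, HISAT2 2.2.1, Trimmomatic 0.39 and FastQC 0.11.9, and the builds GRCm39 and GRCh38. No source used here names the annotation. The authors deposited an estimated count and a TPM value per gene and library. Of the deposited estimated counts 92.7% were whole numbers, and all were rounded. The 12553 genes reaching 1 TPM in 3 or more of the 9 libraries were fitted together by the quasi-likelihood model of edgeR 4.0.16 in R 4.3.3, with TMM scaling and segment as the only term. Of the 22013 entries, 112 carry no symbol. P-values are two-sided with Benjamini-Hochberg adjustment over all tested genes, and SEs come from the fold change and the F statistic. The 95% intervals are the estimate ± 1.96 SE. The procedure was tested on simulated data. Alternatives were DESeq2 1.42.0, its size factors, limma 3.58.1 on log2(TPM + 1) and log2(TPM + 0.1), other filters, pairs of segments alone, a replicate block and each library left out.

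The members and lists were chosen with earlier results of these data known. Named genes were all 8 members, up to 4 genes per pathway list past the threshold with the largest change and a mean TPM of at least 1 in a segment, the 3 genes most like each tested member, and the nearest coding gene on each side. Other genes named beside them were chosen after their values were seen. Gene order was read from GRCm38 and no coordinates were converted.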

Additional observations from a re-analysis of the deposited data

How the results depend on the processing

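The counts of T-box genes past the threshold, 4 for T against C, 5 for L against C and 2 for L against T, were the same in all alternatives with 1 exception: limma on log2(TPM + 1) and on log2(TPM + 0.1), where Tbx18 did not pass and the counts were 3, 4 and 2. These counts describe genes chosen on the same contrasts. On log2(TPM + 1) all genes split into 4110 higher and 2214 lower for T against C, beside 3240 and 3169 with edgeR, and into 3737 and 2246 for L against C, beside 3064 and 3166. The log2 differences between L and T that did not pass changed sign. With each library left out, Tbx20 ran from -0.98 to 0.24, Tbx2 from -0.68 to 0.13 and Tbx18 from -0.04 to 0.07, and Tbx18 was at -0.00 in both limma fits. The cause was not tested. Same-numbered libraries of different segments had deviations from their segment means correlated between -0.15 and 0.29, and the labels give no pairing, so the numbers were used as names only. A shared animal or batch cannot be told from these values. The replicate block left the T-box counts at 4, 5 and 2 and gave 6252, 6084 and 1892 genes in all, beside 6409, 6230 and 2019. Not every library correlated best with its own number. Leaving out each library gave 5451 to 6958 genes for T against C, 5221 to 6890 for L against C and 1412 to 2437 for L against T. Depth limits Tbx4, Tbx5 and Tbx1, with 7, 5 and 28 estimated counts over all 9 libraries.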

Other observations

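Some embryonic regulators below the filter on low values were listed higher in C than elsewhere, and Alx4 was listed highest in L. They were chosen after their values were seen and did not enter the fit behind the report. Eomes, a T-box factor outside the 8 genes described, averaged 0.126 ± 0.159 TPM in L, 0.114 ± 0.0803 TPM in T and 0.609 ± 0.23 TPM in C (SD, n = 3). With no filter on low values, Eomes passed lower in T and in L than in C (edgeR adjusted p = 0.00962 and 0.0126), and with edgeR's filterByExpr likewise (0.0088 and 0.0114). Hand2, a basic helix-loop-helix factor of heart and limb, averaged 0.0207 ± 0.0358 TPM in L, 0.0173 ± 0.03 TPM in T and 0.486 ± 0.0849 TPM in C. Shox2, a homeobox factor of limb and sinoatrial node, was listed at 0 in L, at 0.0153 ± 0.0266 TPM in T and at 0.284 ± 0.15 TPM in C. Tfap2b averaged 0.0783 ± 0.0752 TPM in L, 0.122 ± 0.0592 TPM in T and 0.55 ± 0.0901 TPM in C. With no filter, Hand2 and Tfap2b also passed in both contrasts with C (edgeR adjusted p = 0.00115 and 0.00234 for T, 0.00185 and 2.25e-04 for L), and Shox2 passed in L alone (0.0954 for T, 0.0369 for L). Alx4 stood at 0.273 ± 0.143 TPM in L, 0.0483 ± 0.00416 TPM in T and 0.125 ± 0.0363 TPM in C, and with no filter passed higher in L than in T (edgeR adjusted p = 0.021) but not against C (0.142 for T, 0.163 for L).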
